A study of Papio anubis with 40 samples.

Results

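The DLK1-DIO3 region is an imprinted stretch of the mammalian genome that carries a very long run of microRNA genes. The microRNAs examined here were 58 mature names that belong to it, looked up by name in a table of 2731 microRNA rows. Of these, 55 rows were found, because miR-376a-3p and miR-376b-3p share a joined row and the plain names miR-665 and miR-1193 had no row of their own. A count in any library was present in 46 of the 55 rows, and 29 rows held enough counts to be tested, out of 318 rows tested in the whole table.

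Blood plasma was sampled from 8 olive baboons (Papio anubis) at months 3, 6, 9 and 15 after endometriosis was induced and at month 0, before it, which gave 40 small RNA libraries. The disease was started at laparoscopy by inoculating the peritoneum with menstrual tissue, so that all libraries of months 3 to 15 come from inoculated animals and the month 0 libraries come from the same animals before inoculation. No strain, age or drug is given, the treatment label of every library states that none was given, and no animals without inoculation were analysed here, so time since inoculation, ageing and storage of the samples cannot be told apart. The labels describe 0.5 mL of plasma per sample, whereas the text of the series speaks of serum.

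In mammals the microRNAs of this region are transcribed from the maternally inherited chromosome together with the long noncoding RNA MEG3, while the protein genes DLK1, RTL1 and DIO3 are expressed from the paternal copy. An upstream group of hairpins lies near MEG3 or antisense to RTL1, and a downstream group, from miR-379 to miR-656, is processed from long noncoding host transcripts. The family is known for high expression in brain, placenta and embryonic tissue, and several of its members circulate in blood. In the RefSeq annotation of the baboon assembly Panubis1.0, DLK1 and DIO3 lie on the same chromosome with 57 annotated genes between them, among them RTL1 and 36 small nucleolar RNA genes.

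The rows carry human microRNA names, and the division into upstream and downstream groups follows the known human order. The libraries held 696873 to 5824111 counts, 1629264.5 at the median, and none of the 780 pairs of libraries held identical values. Values are given as CPM, counts relative to a library total that was scaled by the trimmed mean of M-values (TMM), so that libraries filled by a few abundant microRNAs remain comparable. Where no count was seen, up to 3 counts remain possible, equal to 0.374 to 3.97 CPM depending on library size. Exact Clopper-Pearson 95% intervals and these limits cover counting error only. In plasma, fewer contributing cells and less RNA released per cell cannot be told apart.

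The cluster took up a small share of the plasma microRNA pool. Its rows held 210511 counts, which was 0.276% of all counts, and between 0.0834% and 0.956% of the counts of single libraries, with a median of 0.237%. The highest share was found in the month 15 library of PA8872 (95% interval 0.942% to 0.970%) and the lowest in the month 9 library of PA8001 (95% interval 0.0805% to 0.0864%). In that month 9 library the summed level after TMM scaling was 2328 CPM, within the range of the other libraries. The downstream group held 76.5% of the cluster counts in 21 tested rows, and the upstream group held 23.2% in 8 tested rows.

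Most of the signal came from few members. The 6 most abundant rows held 71.8% of the cluster counts. miR-382-5p, from the downstream group, was the most abundant, with a lowest level of 261 CPM, a median of 504 CPM and a highest of 1197 CPM over the 40 libraries. miR-409-3p, also of the downstream group, averaged 419 ± 240 CPM (SD, n = 40). miR-432-5p and miR-127-3p, both encoded antisense to RTL1 in other mammals, averaged 285 ± 137 CPM and 238 ± 176 CPM (SD, n = 40 each). The joined row of miR-376a-3p and miR-376b-3p, whose hairpins are known targets of A-to-I editing in mammalian brain, averaged 208 ± 131 CPM, and miR-411-5p averaged 189 ± 104 CPM (SD, n = 40 each). The SDs of neighbours in this order overlap. The next members were miR-376c-3p at 125 CPM, miR-381-3p at 106 CPM, miR-889-3p at 101 CPM, miR-369-5p at 99.6 CPM and miR-154-5p at 70.4 CPM.

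After these 11 members came miR-485-5p at 33.6 CPM and miR-431-5p at 28.1 CPM, and the least abundant tested row, miR-127-5p, averaged 2.90 CPM. The 11 members at a mean of 50 CPM or more, a division chosen after the levels were seen, held 90.8% of the cluster counts. The other 18 tested rows held 8.97%. Of the 29 tested rows, 14 were counted in all 40 libraries.

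**Figure D1:**
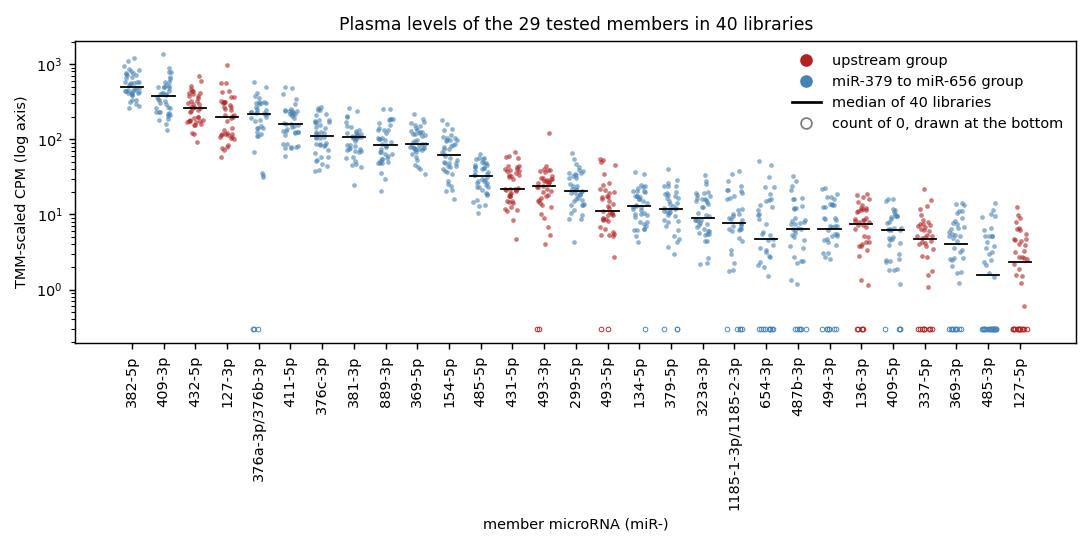
Level of each tested cluster row, in CPM on a log axis, with 1 filled point per library for the 40 libraries, a line at the median and counts of 0 as open points at the bottom; colours mark the upstream group and the group from miR-379 to miR-656. By mean level the 11 rows at 50 CPM or more run from miR-382-5p at 564 CPM down to miR-154-5p at 70.4 CPM, and the other 18 lie between 33.6 and 2.90 CPM.

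The remaining members were close to or below the limit of detection. A further 17 rows held counts but were not tested. Together they had 476 counts, between 3 and 87 each over all libraries, with no single value above 17, and each was seen in 1 to 15 libraries. miR-433-3p, another microRNA antisense to RTL1, had 87 counts, and miR-337-3p had 53. Rows with 0 counts in all 40 libraries were miR-299-3p, miR-380-3p, miR-323b-3p, miR-487a-3p, miR-541-3p, miR-654-5p, miR-758-3p, miR-770-5p and miR-1197. For the name miR-665, the row miR-665-3p held 41 counts in 10 libraries and miR-665-5p held 0. Both arms of miR-1193 held 0 counts. In all, 25 of the 47 hairpins named had a tested arm. This counts miR-376a and miR-376b apart although they share a row, and the joined miR-1185 hairpins together.

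Rows with a count per library ranged from 21 to 43. By month the median was 27, 29, 28, 29 and 30.5 rows at months 0, 3, 6, 9 and 15. Median library totals also differed, at 1315968, 1560903.5, 1635318.5, 1775616.5 and 1887462 counts in the same order. At an equal depth of 696873 counts, the smallest total, the expected medians were 26.8, 28.2, 27.2, 27.6 and 29.04 rows. The range of these medians was thus narrower at equal depth.

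Among the 58 names, 5 hairpins had both arms tested, and in 4 of them most counts came from a preferred arm. For miR-127 the 3p arm held 98.8% of the counts of both arms (95% interval 98.7% to 99.0%), and for miR-409 the 3p arm held 98.7% (98.6% to 98.8%). For miR-369, whose 3p arm is known from human cells to bind the TNF mRNA, the 5p arm held 95.3% (94.9% to 95.8%). For miR-485, a brain-expressed microRNA with targets at the synapse, the 5p arm held 89.4% (88.2% to 90.5%) and was the higher arm in 39 of 40 libraries. These intervals pool the counts of all libraries and cover counting error only. The shares by month ran wider, from 97.4% to 99.7% for miR-127 and 97.9% to 99.1% for miR-409. For miR-369 they ran from 93.8% to 96.9%, and for miR-485 from 87.3% to 92.4%. Of the hairpins with a single tested arm, miR-382 and miR-411 gave 99.95% and 99.8% of their counts from the 5p arm, and for miR-299 and miR-654 the other arm had no counts.

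miR-493, known for limiting metastatic growth of tumour cells in the liver, was the most evenly divided of these 5. Its 3p arm held 61.8% of the counts (60.1% to 63.4%), was higher than the 5p arm in 29 libraries, lower in 10 and equal in 1. By month the 3p share was 56.2%, 65.3%, 64.3%, 54.7% and 62.6% at months 0, 3, 6, 9 and 15. The levels of the 2 arms of a hairpin were only weakly correlated over the 40 libraries after each baboon's mean was removed. The coefficients were 0.19 for miR-127, 0.17 for miR-409, 0.30 for miR-369, -0.054 for miR-485 and 0.15 for miR-493. The minor arm was a low count except for miR-493, whose 5p arm held 1250 of the counts against 2019 for 3p, and these coefficients are a description only. Among the rows not tested, miR-433 had 87 counts from its 3p arm and 79 from its 5p arm, which is not among the 58 names.

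The first question was whether cluster members differed from their level before inoculation at any later month. No member of the 29 passed an adjusted p of 0.05 in the quasi-likelihood F test of edgeR at month 3, 6, 9 or 15 against month 0. The share of all 318 rows called was 0% at each of months 3, 6 and 9 and 4.09% (13 rows) at month 15. At an unadjusted p under 0.05, 1 member passed at month 3, 0 at month 6, 0 at month 9 and 3 at month 15, against 1.57%, 3.46%, 3.46% and 12.6% of all rows tested. limma-voom and DESeq2 also called 0 members at months 3, 6 and 9. At month 15 each of them called 1, the joined row of miR-1185-1-3p and miR-1185-2-3p. The share of all rows that they called at month 15 is not given here, so this count is not read as particular to the members.

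The summed level of the cluster spread out at month 15. At month 0 the 8 libraries lay between 1703 and 2937 CPM with a median of 2171 CPM. The lowest, median and highest sums were 1422, 2655 and 4189 CPM at month 3, 1323, 2725 and 3900 CPM at month 6, 897, 2361 and 3986 CPM at month 9, and 1256, 2776 and 6770 CPM at month 15. The mean was 3316 ± 2083 CPM at month 15, against 2189 ± 437 CPM at month 0 (SD, n = 8 each). The month 15 range enclosed the whole month 0 range, so the groups overlapped.

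The animals fell on both sides. Relative to the same animal at month 0, the month 15 sum was 2.86 times as high in PA8872, 2.11 times in PA8912 and 1.95 times in PA8001. It was 1.24 times in PA8003 and 0.957 times in PA8914. In the other animals it was lower, at 0.861 times in PA8873, 0.804 times in PA8915 and 0.738 times in PA8835. The 3 animals with the largest ratios had sums of 6770, 4956 and 4993 CPM at month 15, against 2369, 2352 and 2555 CPM at month 0.

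**Figure D2:**
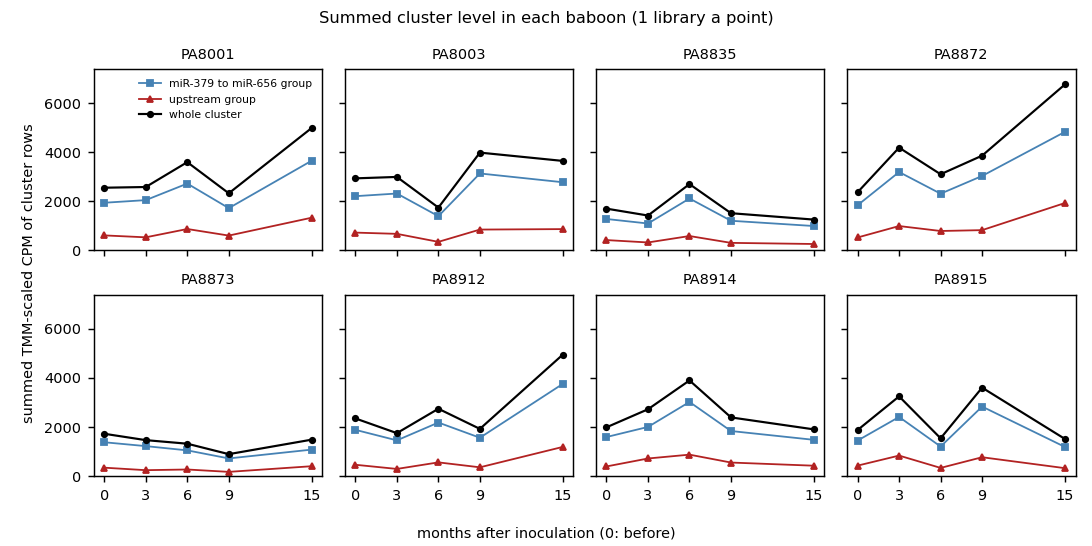
Summed CPM of all cluster rows, of the upstream group and of the group from miR-379 to miR-656 at months 0, 3, 6, 9 and 15, with 1 panel per baboon and 1 library per point. The sum of all rows was highest at month 15 in PA8872, PA8912 and PA8001 (6770, 4956 and 4993 CPM), at month 0 in PA8873 (1727 CPM) and at month 6 or 9 in the other 4, while the upstream sum was highest at month 15 also in PA8873 (406 CPM) and PA8003 (869 CPM) and at month 3 in PA8915 (839 CPM).

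The abundant members were on the same side in some animals and mixed in others. Of the 11 members at 50 CPM or more, 11 were higher at month 15 than at month 0 in each of PA8001, PA8872 and PA8912. The number was 7 in PA8003, 3 in PA8914, and 1 in each of PA8873, PA8835 and PA8915. The 1 in PA8835 was the joined row of miR-376a-3p and miR-376b-3p, which had 0 counts there at month 0. Of all 318 rows, between 42.8% and 66.4% were higher at month 15 in a given animal. Over the 32 steps between month 0 and a later month in the 8 animals, all 11 lay on the same side in 9 steps, 6 of them higher and 3 lower. In 19 steps, these 9 included, at least all but 1 did, 11 of them higher and 8 lower, and the other 13 steps were mixed. The steps of an animal share its month 0 library, so the 32 steps are not independent. At months 3, 6, 9 and 15 the number higher was 11, 10, 11 and 11 in PA8872. In PA8873 it was 4, 0, 0 and 1. No such count for rows outside the cluster is given.

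**Figure D3:**
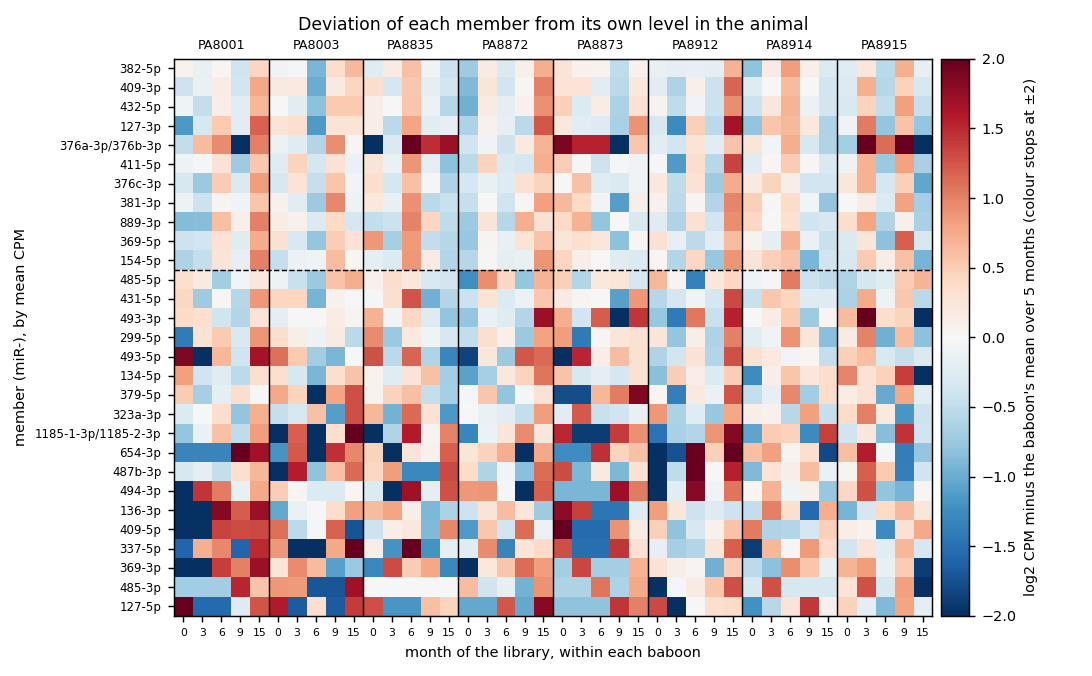
Deviation of each tested cluster row from its own mean within a baboon, in log2 CPM, for the 40 libraries ordered by baboon and month, with colours that stop at 2 in either direction and a dashed line below the 11 rows at 50 CPM or more. Columns such as month 15 of PA8872, PA8912 and PA8001 are raised through the 11 abundant rows, while the rows under 50 CPM are patchy.

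At month 15 against month 0, 26 of the 29 tested members had a log2 change above 0, against 59.4% of all rows tested. Their median was 0.45, with 0.11 over all 318 rows. The 11 members at 50 CPM or more were all above 0, with a median of 0.40. The share above 0 depended on scaling: with DESeq2 size factors it was 21 of 29, with a median of 0.32, and with upper-quartile factors also 21 of 29, with a median of 0.34. Without the month 15 library of PA8872 the median was 0.13, with 20 of 29 above 0. Without all of PA8872's libraries it was 0.21, over the 28 members tested in that fit. No test was made of the members as a list.

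miR-1185 was the member with the smallest p at month 15. It is a downstream microRNA whose 2 hairpins give 3p arms joined in a single row, which cannot be divided between them. Its lowest, median and highest levels were 6.39, 18.7 and 38.4 CPM at month 15, against 0, 4.59 and 10.2 CPM at month 0. It was counted in 8 of 8 libraries at month 15 with 370 counts, and in 6 of 8 at month 0 with 51 counts. PA8912 was highest at month 15 with 38.4 CPM and PA8873 was lowest with 6.39 CPM, so the groups overlapped between 6.39 and 10.2 CPM.

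The log2 change of miR-1185 was 2.17 (SE 0.787), with an unadjusted p of 0.00938 and an adjusted p of 0.149 by edgeR. It was higher in 7 of 8 baboons, and an exact sign-flip permutation test over the 8 animals gave a two-sided p of 0.0234, unadjusted. The lowest p this test can give is 0.00781. limma-voom gave a log2 change of 2.26 with an adjusted p of 0.0309, and DESeq2 gave 2.07 with 0.0306, while over all 23 alternatives the adjusted p ran from 0.0306 to 0.952. The count of members higher in at least 7 of 8 baboons was 1, against 6.6% of all rows. At the earlier months the log2 change of miR-1185 was 0.88 at month 3, 0.96 at month 6 and 1.49 at month 9, with adjusted p of 1.00, 0.990 and 1.00 by edgeR.

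miR-127-3p, which is antisense to RTL1 and in mouse directs cleavage of the Rtl1 mRNA, was the next. Its lowest, median and highest levels were 108, 241 and 973 CPM at month 15, against 100.1, 135.8 and 312 CPM at month 0. The month 15 values of PA8872, PA8001 and PA8912 were 973, 568 and 558 CPM and lay above every month 0 library, while the other 5 lay within the month 0 range. The log2 change was 0.94 (SE 0.364), with an unadjusted p of 0.0147 and an adjusted p of 0.212 by edgeR, and it was higher in 5 of 8 baboons (exact sign-flip permutation p = 0.156).

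miR-382-5p had a lowest, median and highest level of 261, 692 and 1108 CPM at month 15, against 298, 436 and 669 CPM at month 0. Its log2 change was 0.48 (SE 0.234, unadjusted p = 0.0490, adjusted p = 0.376 by edgeR), higher in 6 of 8 baboons (exact sign-flip permutation p = 0.0625). miR-409-3p had 181, 450 and 1348 CPM at month 15, against 231, 326 and 491 CPM at month 0. Its log2 change was 0.54 (SE 0.268, adjusted p = 0.376 by edgeR), higher in 4 of 8 baboons. For both microRNAs the month 15 range was wider than the month 0 range at each end.

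The other 3 of the 6 most abundant members did not pass the test at month 15. Their log2 changes were 0.45 (SE 0.268) for miR-432-5p, 0.50 (SE 0.733) for miR-376a-3p and miR-376b-3p, and 0.28 (SE 0.304) for miR-411-5p, with adjusted p of 0.517, 0.818 and 0.729 by edgeR. The joined row of miR-376a-3p and miR-376b-3p had 0 counts at month 0 of PA8835 and at month 15 of PA8915. Its log2 differences between these months were 7.06 in PA8835 and -4.92 in PA8915. The SE, derived from the log2 change and its F statistic, ran from 0.23 to 1.05 over the 29 members. A 2-fold change, which is 1 on the log2 scale, is thus smaller than 1 SE for the members with the largest SE.

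**Figure D4:**
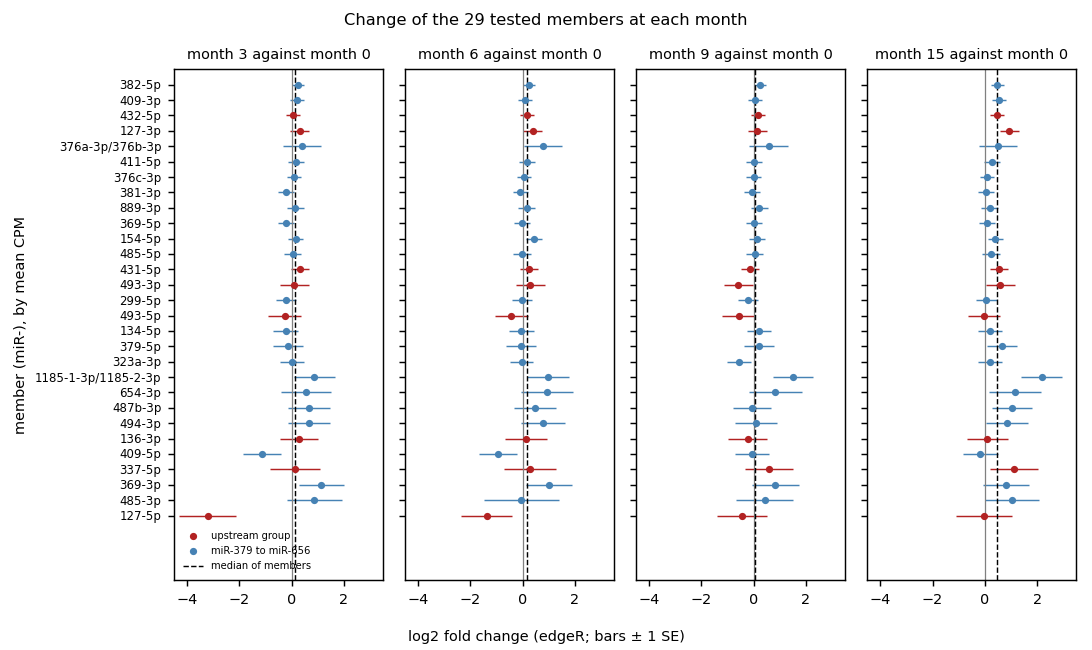
Log2 change of each of the 29 tested members at months 3, 6, 9 and 15 against month 0, in 1 panel each, with bars of 1 SE and a dashed line at the median of the members, from the edgeR fit of 40 libraries. At month 15, 26 points lie above 0 (21 with DESeq2 size factors), miR-1185 has the largest value at 2.17, and none passes the adjusted threshold at any month.

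The groups by position and by arm were compared as a description. At month 15 the upstream group had 6 of 8 rows above 0 and a median of 0.50, and the downstream group had 20 of 21 and a median of 0.40. The summed upstream level was 262, 648 and 1935 CPM (lowest, median, highest) at month 15, against 346, 447 and 726 CPM at month 0. The summed downstream level was 994, 2129 and 4835 CPM at month 15, against 1281, 1718 and 2211 CPM at month 0. The 3p rows had a median of 0.59 with 15 of 15 above 0, and the 5p rows 0.25 with 11 of 14. At months 3, 6 and 9 the 3p rows had 14, 12 and 10 of 15 above 0, and the 5p rows 7, 6 and 9 of 14. The upstream group had 6, 6 and 3 of 8 above 0 at these months, and the downstream group 15, 12 and 16 of 21. A difference between the groups or between the arms was not tested at any month.

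At the earlier months the members were close to the rest of the table. The count above 0 was 21 of 29 at month 3, 18 at month 6 and 19 at month 9, against 64.5%, 62.9% and 59.4% of all rows. The medians were 0.14, 0.16 and 0.03, beside 0.08, 0.10 and 0.05 over all rows. With library totals alone as the scale, the medians of the members were -0.038 at month 3 and -0.32 at month 9, and those of all rows were -0.10 and -0.28.

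The smallest p of any member at any earlier month belonged to miR-127-5p, the minor arm of miR-127. It had 10 counts in 2 of 8 libraries at month 3, against 58 counts in 5 of 8 libraries at month 0, and a log2 change of -3.21 (SE 1.08, unadjusted p = 0.00548, adjusted p = 1.00 by edgeR). The groups overlapped at 0, with 6 of 8 libraries at month 3 and 3 of 8 at month 0 without a count. The row was kept in 18 of the 23 alternatives, so it was near the limit of the filter. Its mean was 5.09 CPM at month 0 and 4.30 CPM at month 15, against 0.404, 1.69 and 3.01 CPM at months 3, 6 and 9. The filter keeps a row through the months where it is high, so these differences are not independent of it. At month 3 the next smallest p belonged to miR-409-5p at -1.13, miR-369-3p at 1.14 and miR-1185 at 0.88. At month 6 the 4 members with the smallest p were miR-154-5p at 0.43, miR-127-5p at -1.38, miR-409-5p at -0.94 and miR-1185 at 0.96. At month 9 the smallest p was that of miR-1185 at 1.49 (unadjusted p = 0.0576 by edgeR, higher in 6 of 8 baboons), followed by miR-323a-3p at -0.58, miR-493-3p at -0.59 and miR-382-5p at 0.25. miR-154-5p, known from human lung fibroblasts for a profibrotic role, was higher at month 6 in 7 of 8 baboons, with 25.3, 82.9 and 112 CPM at month 6, against 34.3, 55.1 and 74.8 CPM at month 0 (adjusted p = 0.990 by edgeR).

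Month 15 was also set against the mean of months 3, 6 and 9, which uses no month 0 library. No member passed the adjusted threshold, against 0.629% (2 rows) of all rows. At an unadjusted p under 0.05 there were 2 members, against 10.7% of all rows, and limma-voom and DESeq2 also called 0. The log2 change was above 0 in 27 of 29 members, against 56.3% of all rows, with a median of 0.33 beside 0.05. The members with the smallest p were miR-127-5p at 1.65 (SE 0.714, adjusted p = 0.336), miR-127-3p at 0.66 (SE 0.290, adjusted p = 0.339), miR-409-3p at 0.43 and miR-1185 at 1.06, all by edgeR. The test of all 4 later months together called 0 members, against 0.943% (3 rows) of all rows, with 1 member at an unadjusted p under 0.05, against 9.12%, and limma-voom and DESeq2 also called 0. That member was miR-127-5p, with an unadjusted p of 0.0370 and an adjusted p of 0.494 by edgeR. As said above, miR-127-5p was near the limit of the filter and was kept through the months where it was high. The members with the next smallest p were miR-1185, miR-127-3p and miR-409-3p, with adjusted p of 0.740, 0.931 and 0.994.

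Members were also compared between animals. In a test of the baboon terms of the same fit, chosen after the data were seen, 10 of 29 members passed an adjusted p of 0.05 by edgeR, which is 34.5%, against 32.4% of all rows tested. The share among members was thus near that of the table as a whole. The smallest adjusted p was 0.000633 for miR-376c-3p, followed by miR-154-5p at 0.00101 and miR-409-3p at 0.00158. miR-376c-3p averaged 202 ± 51.3 CPM in PA8872 and 48.2 ± 13.4 CPM in PA8873 (SD, n = 5 months each), and the ranges of these animals did not overlap. The mean summed level of the cluster ran from 1381 CPM in PA8873 to 4059 CPM in PA8872. Within an animal the highest month was 1.93 to 2.86 times the lowest.

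The members varied together across libraries. After each baboon's mean log2 CPM was removed, each member was correlated with the mean of the other tested members over the 40 libraries, as a description without a test, since the libraries share animals, scaling and depth. The median coefficient was 0.49 for the 29 members, 0.75 for the 11 at 50 CPM or more and 0.41 for the 18 below. Counting error is larger in these 18, and its part in the coefficients was not tested. Among the 11, the joined row of miR-376a-3p and miR-376b-3p was the lowest at 0.33. For the rows outside the cluster the median was 0.0057, with quartiles of -0.22 and 0.29. The most correlated rows of all 318 were miR-127-3p at 0.93, miR-409-3p at 0.89 and miR-432-5p at 0.86, and 12 members were among the first 30 rows. miR-127-5p at 0.10, miR-409-5p at 0.17, miR-136-3p at 0.18 and miR-485-5p at 0.18 were the lowest. The median of the members was 0.44 without the month 15 libraries of PA8912 and PA8001, the libraries that deviated most.

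Over all 406 pairs of tested members the median coefficient was 0.29 and 87.9% were positive. Pairs among the 18 members under 50 CPM had a median of 0.20, with 77.8% positive. Among the 11 abundant members all 55 pairs had a positive coefficient, between 0.30 and 0.91 with a median of 0.70. Pairs of 75 rows outside the cluster within the same range of levels had a median of 0.020. Within these 11, pairs that joined an upstream with a downstream member had a median of 0.71 (18 pairs of 2 upstream and 9 downstream members), and pairs within the downstream group 0.67 (36 pairs).

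**Figure D5:**
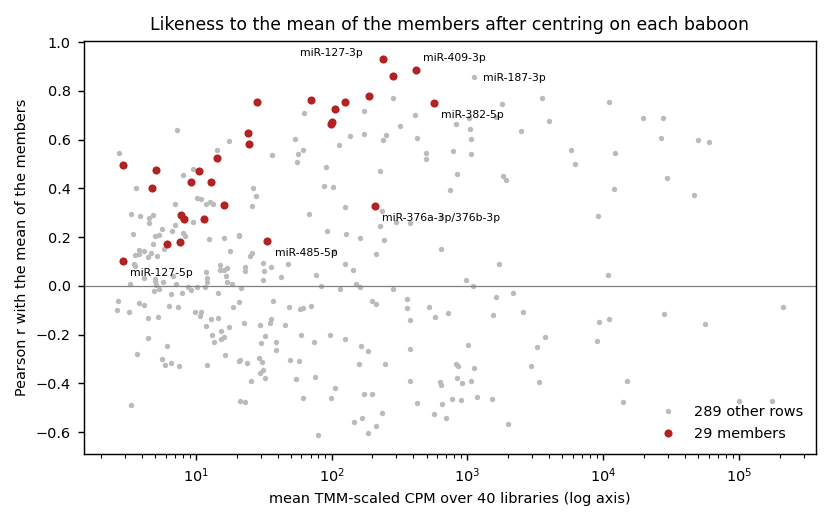
Correlation of each of the 318 tested rows with the mean of the tested cluster members, after each baboon's mean was removed (40 libraries), against the mean level in CPM on a log axis. Cluster members at 50 CPM or more lie between 0.33 and 0.93, and the rows outside the cluster centre on 0.0057.

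Some rows outside the region followed the cluster as closely as its own members did. The rows most like it by the same coefficient were miR-187-3p at 0.85, miR-598-3p at 0.77, miR-139-5p at 0.77, miR-26b-5p at 0.75 and miR-155-5p, a microRNA of activated immune cells, at 0.74. They were followed by the neuronal microRNAs miR-9-3p at 0.72 and miR-9-5p at 0.71, then miR-151a-3p at 0.70, miR-30e-3p at 0.69 and miR-744-5p at 0.69. miR-151a-3p also stands in the platelet list and both arms of miR-9 in the neuronal list.

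Markers of cells that release RNA into plasma were compared beside the cluster. Of 9 platelet-rich microRNAs, all 9 were tested and 8 had a log2 change above 0 at month 15, with a median of 0.44 and 1 called, miR-126-3p. Their summed level was 111328 to 225640 CPM at month 15, against 87050 to 155972 CPM at month 0. The median correlation of the platelet rows with the cluster was 0.59. The mean log2 level of the platelet rows was higher at month 15 than at month 0 by 1.10 in PA8912, 0.87 in PA8872 and 0.70 in PA8001, the animals in which the cluster was highest relative to month 0. In the other 5 animals the difference lay between -0.19 and 0.33.

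With the platelet level as a covariate, the median log2 change of the members at month 15 turned to -0.18, with 6 of 29 above 0, and the change of miR-127-3p to -0.18. The change of miR-1185 was 1.48 in that fit, with an adjusted p of 0.952 by edgeR. The median of all rows at month 15 was -0.019 with this covariate, against 0.11 in the main fit. The platelet level was taken from the same libraries and was itself higher at month 15 in most animals. Platelets and time therefore cannot be told apart by this fit, and the part of platelets in the level of the cluster was not tested.

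The red cell index, the log2 CPM of miR-451a minus that of the joined row of miR-23a-3p and miR-23b-3p, is a common measure of red cell RNA in plasma. It averaged -0.82 at month 15, against 0.011 at month 0. The difference between month 15 and month 0 was -4.83 in PA8872 and -1.04 in PA8912, while the differences of the other 6 animals ran from -0.43 to 0.33. With this index as a covariate the median of the members at month 15 was 0.25, with 21 of 29 above 0. Of 7 erythrocyte microRNAs 6 were tested, with 2 above 0 and a median of -0.23 at month 15. Their summed level was 98071 to 654923 CPM at month 15, against 196786 to 544973 CPM at month 0, and their median correlation with the cluster was -0.10.

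The neuronal list had 3 tested rows of 5, all above 0 at month 15 with a median of 0.47 and 0 called. Its summed level was 514 to 2060 CPM at month 15, against 416 to 946 CPM at month 0, and its median correlation with the cluster was 0.71. The liver, muscle, and endothelial and stromal lists had medians of -0.17, -0.094 and -0.33 at month 15 and correlations of -0.42, -0.13 and -0.091. Their members above 0 numbered 1 of 5, 1 of 5 and 1 of 9, with 0, 0 and 1 called. Both arms of miR-126 were counted in the platelet list and not in the endothelial and stromal list. Of 8 placental microRNAs of the chromosome 19 cluster 6 had no count, and the summed level of the list was at most 3.60 CPM in any library. The part of these sources in the cluster levels was not tested.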

How the data were processed

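Small RNA from plasma was ligated to adapters, given molecular identifiers at cDNA synthesis and sequenced on an Illumina NovaSeq X, per the labels' protocols. The authors deposited raw counts for each mature microRNA name; for these the aligner, the database and the choice between identifiers and reads were not given in the sources used here. R 4.5.0, edgeR and limma are named per the submitters' processing notes. Total counts per library, 696873 to 5824111, set the precision.

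Rows were kept with filterByExpr by month (minimum count 10, minimum total 15), scaled with TMM factors and fitted over all 40 libraries with terms for month and baboon. Tests were quasi-likelihood F tests in edgeR 4.0.16, run in R 4.3.3 with limma 3.58.1. The labels name the baboon of every library, so the comparisons are paired by animal. P-values are two-sided and adjusted by Benjamini-Hochberg over the 318 rows. The SE given with an edgeR log2 change is the size of that change divided by the square root of its F statistic. Log2 CPM values use a prior count of 2. The fit was also run on simulated counts, drawn for each row independently. The outcome is not given here, so nothing is read from it. Alternatives were DESeq2 1.42.0, limma-voom, other scalings, no filter, no block, each baboon left out, single libraries left out and covariates for red cell index, platelet level and depth. Values in sentences with exact p come from sign-flip permutation over 8 baboons.

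The members and marker lists were chosen with earlier results of these data known. Members named are the 6 most abundant, the 4 with the smallest p in each comparison where none passed, and hairpins with both arms tested as members. Members named beside these were chosen after their values were seen. Names of neighbouring genes come from RefSeq, assembly Panubis1.0, and no coordinates are given because the files name no build.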

Additional observations from a re-analysis of the deposited data

Results flagged for a closer look

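In 90 groups of 8 libraries looked at, 3 held a library far from the other 7, and chance alone gives about 1 in 20. At month 3, miR-127-5p had 2.62 CPM in PA8915, against 0.608 CPM in the next library and 0 in the other 6. At month 6, miR-382-5p had 1197 CPM in PA8914, against 651 CPM in the next and 314 CPM in the lowest library. At month 15, miR-493-3p had 120 CPM in PA8872, against 38.4 CPM in the next and 0 in the lowest library.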

How the results depend on the processing

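Of 775 alternative values, 9 values of single members changed direction and 3 passed the threshold where the reported value did not. Counts moved by more than 1.5 times, or away from 0, in 5 cases. Changes of sign of the members' median are not among the 9. For example, with the platelet level as a covariate this median was -0.13 at month 3, -0.15 at month 6 and -0.18 at month 15. With library totals alone it was -0.32 at month 9. The count of members called at months 3, 6 and 9, in any month and at month 15 against the mean of months 3, 6 and 9 was 0 in every alternative run. At month 15 the count was 1, the row of miR-1185, with limma-voom (log2 change 2.26), with DESeq2 (2.07) and without PA8873 (2.66, adjusted p = 0.0448), and ran from 0 to 1 with each baboon left out. The shares of all rows called in these fits are not given here. Without baboon as a block, so without the pairing by animal, 0 members were called at month 15. The count that differed between baboons ran from 4 to 12 with each baboon left out, with 4 without PA8873 and 5 without PA8872. For these fits too the shares of all rows are not given, so the change in count is not read as particular to the members. With the platelet level as a covariate, the log2 change at month 15 turned negative for miR-127-3p (-0.18), miR-409-3p (-0.15) and miR-432-5p (-0.13), with -0.096 for miR-376a-3p and miR-376b-3p and -0.47 for miR-411-5p. Against the mean of months 3, 6 and 9 it was -0.12 for miR-127-3p and -0.048 for miR-409-3p. With months 0 and 15 compared alone, miR-411-5p was at -0.0044, and the median of the 24 members tested in that fit was 0.083. With library totals alone, miR-382-5p at month 9 was at -0.10, and the median of all rows moved by -0.34 at month 9. DESeq2 size factors and upper-quartile factors moved the median of all rows at month 15 by -0.11. The causes were not tested. The median correlation of members with the cluster ran from 0.44 to 0.56. Rows under 50 CPM are limited by depth.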

Other observations

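The joined row of miR-376a-3p and miR-376b-3p was at 0 counts in 3 libraries, month 9 of PA8873, month 15 of PA8915 and month 0 of PA8835. At the median level of the row these libraries would hold 275, 242 and 273 counts. miR-376c-3p, from the same run of hairpins, had 38.4, 50.7 and 106 CPM there. Over the 40 libraries the ratio of the joined row to miR-376c-3p had a median of 1.66 and a maximum of 3.76, and it was under 0.5 in 5 libraries, with a lowest value above 0 of 0.25.

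Other microRNA arms of the region, 40 rows that are not among the 58 names, held 901 counts in all, and 24 of them had a count. The only one tested was miR-431-3p, from a hairpin known in mouse muscle for a role in regeneration, with 271 counts in 28 libraries. Its log2 change at month 15 against month 0 was 1.87 (SE 0.921, unadjusted p = 0.04999, adjusted p = 0.376 by edgeR).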
